A study of Mus musculus with 8 samples.

Results

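A total of 268 of the 860 regions opened by long-term Cr(VI) treatment of Hepa-1 cells lay inside genes and away from any start of transcription. These regions are FAIRE peaks. FAIRE (formaldehyde-assisted isolation of regulatory elements) recovers DNA that is not crosslinked to histones, so that a peak in treated over control cells marks a stretch that became more open. The 268 peaks were chosen by their position in the list called by the authors in treated over control cells: the peak centre lay more than 5000 bp from every RefSeq transcription start site (TSS) of mm10 and inside the span of at least 1 RefSeq gene. Of the remaining long-term peaks, 337 lay between genes at the same distance from a TSS and 255 lay within 5000 bp of a TSS. Peak height, peak width and the opening itself were therefore used to select the members, and they are given as a description without a test.

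Hepa-1 (Hepa-1c1c7) is a mouse hepatoma cell line, and every sample of the series came from it. The long-term cells had been grown for 20 passages in medium with 0.5 µM chromate, renewed daily, and their controls for as many passages without it. The acute cells had been treated with 25 µM chromate for 90 minutes and were compared with a control library of their own. Each FAIRE condition was 1 library, so no peak has a replicate check. RNA-seq was available here as 2 libraries of the 25 µM treatment and 2 of control cells whose regimen is not named by their labels, while RNA of the long-term cells was not analysed here. The RNA values below therefore describe the host genes under the other treatment.

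The identity of the cells was checked in the RNA-seq libraries. Of 12 hepatocyte-lineage markers, 11 passed edgeR's filter on low counts (the count filter below), and their summed level was 4227 and 4364 CPM (counts scaled to library size) in the controls and 7486 and 8761 CPM in the treated libraries. Apolipoprotein A-I (Apoa1) had 0 counts in both controls, and Apob stood at 0.662 and 0.665 CPM there. Ttr (0.345 and 0.333), Hnf4a (0.230 and 0.256) and Serpina1a (0.690 and 0.614) were also low. Albumin (Alb) stood at 905 and 947 CPM, and Krt8, Krt18 and Trf made up most of the control sums. At 25 µM Alb stood at 3667 and 3550 CPM (log2 fold change 1.96, edgeR adjusted p = 0.032). Apob (4.53, adjusted p = 0.0282), Fgb (2.44, 0.0282) and Ttr (2.46, 0.0332) were also called higher. The other tested markers of this list were not called. Of 8 markers of leukocytes, endothelium and fibroblasts, 4 passed the filter, with summed levels of 225 to 229 CPM in control and 252 to 396 CPM in treated libraries. Col1a1, a collagen gene of fibroblasts, made up most of this, with 203 and 207 CPM in controls and 234 and 364 CPM in treated libraries (edgeR adjusted p = 0.209). Col1a2, the other type I collagen gene of the list, had 1 and 0 counts in controls and 5 and 2 in treated libraries. Pdgfra, also of fibroblasts, stood at 12.9 CPM in both controls and at 10.8 and 7.80 CPM in treated libraries. Pecam1, of endothelium, rose from 0.489 and 0.486 CPM to 1.77 and 2.24 CPM (log2 fold change 2.03 ± 0.295 SE, edgeR adjusted p = 0.0438), and Cdh5 had 0 counts in all 4 libraries.

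Open chromatin inside introns and far from promoters often marks enhancers, short stretches bound by transcription factors that raise transcription of a gene from a distance. An enhancer in an intron may act on the gene that holds it or on a neighbour. AP-1 is a family of dimers of Jun, Fos, ATF and related leucine zipper proteins, which respond to growth signals and stress and bind TGAGTCA, or TGACTCA on the opposite strand. FOXA proteins are forkhead factors of the liver lineage that can bind nucleosomal DNA, and their core sequence is TGTTTAC.

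Of 13 factor sequences searched, the one held by the largest number of members was the AP-1 sequence, which lay in the central 200 bp of 56 of the 268 peaks. Shown here are windows of 101 bp around it in 8 of the 10 highest-scoring members that held it and had at least 90% of their sequence found at a single place in the genome; the windows of the other two reach an exon. The AP-1 sequence is in capitals, all windows are on the plus strand of mm10, and all lie in introns.
Vtcn1, chr3:100848383-100848483: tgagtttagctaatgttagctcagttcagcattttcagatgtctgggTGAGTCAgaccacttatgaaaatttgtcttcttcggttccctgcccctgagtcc
Sik3, chr9:46188502-46188602: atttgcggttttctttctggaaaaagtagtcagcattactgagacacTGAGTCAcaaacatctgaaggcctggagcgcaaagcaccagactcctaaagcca
Ngef, chr1:87492570-87492670: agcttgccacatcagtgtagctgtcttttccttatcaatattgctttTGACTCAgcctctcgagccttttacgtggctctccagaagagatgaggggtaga
Carmil1, chr13:24247594-24247694: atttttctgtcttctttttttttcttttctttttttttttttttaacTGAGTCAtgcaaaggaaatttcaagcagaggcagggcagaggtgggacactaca
Aig1, chr10:13684643-13684743: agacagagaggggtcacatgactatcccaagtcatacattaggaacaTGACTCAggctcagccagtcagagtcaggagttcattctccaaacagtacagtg
Gm46298, chr11:108898226-108898326: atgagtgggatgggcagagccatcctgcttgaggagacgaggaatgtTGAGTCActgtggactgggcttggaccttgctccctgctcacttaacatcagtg
Gng12, chr6:67014773-67014873: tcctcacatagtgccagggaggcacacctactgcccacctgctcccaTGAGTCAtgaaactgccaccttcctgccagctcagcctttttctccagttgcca
Rbfox2, chr15:77220321-77220421: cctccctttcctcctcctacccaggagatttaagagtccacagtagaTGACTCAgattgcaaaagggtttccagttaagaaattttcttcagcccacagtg

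The scores of these members ran from 96.4 in Vtcn1, which encodes a T cell inhibitory ligand, through 86.5 in Sik3, a salt-inducible kinase, to 69.4 in Rbfox2, a splicing factor. The score is 10 times the negative log10 of the peak caller's p-value and starts at 50. In Ngef the AP-1 sequence belongs to the longer BACH2 sequence GCTGAGTCA or GCTGACTCA, read here on the minus strand. BACH2 is a repressor of the same leucine zipper class, and its sequence was held by 3 members, in Ngef, Cdkl3 and Myom3; the last was chosen after its values were seen. The distance from the peak centre to the AP-1 sequence in these 8 windows ran from 1 bp in Carmil1 to 80 bp in Gm46298.

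Of the 56 members with an AP-1 sequence, 46 held 1 and 10 held 2 or more. Members with 2 lay in Vtcn1, Ptprj, Glis1, Nav3, Spink5, Tmprss11c and the non-coding genes Gm32224 and A930035F09Rik. Glis1, a Krüppel-like zinc finger gene, had 2 members 94286 bp apart, both in intron 2, and each held 2. Windows of members with 2 AP-1 sequences in Ptprj, a receptor tyrosine phosphatase, and Glis1 show how closely they can be spaced: in the second line both fall in 1 window.
Ptprj, chr2:90542830-90542930: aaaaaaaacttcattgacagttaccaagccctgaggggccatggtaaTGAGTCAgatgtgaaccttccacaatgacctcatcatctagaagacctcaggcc
Glis1, chr4:107459031-107459131: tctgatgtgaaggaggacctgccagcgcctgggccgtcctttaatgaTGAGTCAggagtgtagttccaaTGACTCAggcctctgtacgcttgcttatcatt
Glis1, chr4:107553887-107553987: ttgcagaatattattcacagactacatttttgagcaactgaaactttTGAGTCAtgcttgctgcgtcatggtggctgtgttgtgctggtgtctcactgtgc

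The AP-1 share of the members was 20.9%, with a 95% Wilson interval of 16.5% to 26.2%. For reference, all 4740922 windows of 200 bp in mm10 that meet the same position rule were searched on both strands, and 3.23% of them held the sequence. With windows weighted to the GC content of the members that share was 2.89%. The members thus held AP-1 sequences 6.48 times as often as all windows and 7.22 times as often as windows of like GC content. A match is a stretch of letters and does not show that a factor was bound.

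The AP-1 sequences were gathered at the middle of the peaks. Within 100 bp of the centre the members had 71 of them, or 1.32 per kb, against 0.168 per kb at 500 to 1000 bp from the centre. The 50 bp just before and just after the centre held 25 and 20. Taking the whole peak in place of its central 200 bp gave a share of 27.2%, or 73 members.

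**Figure D1:**
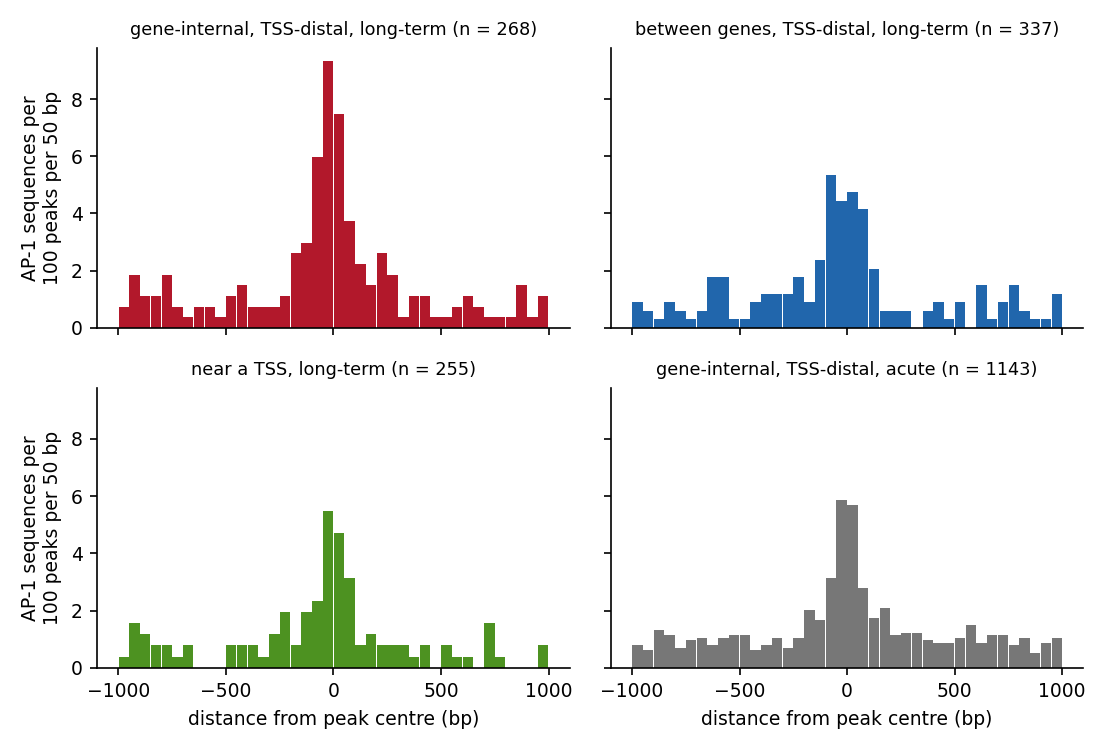
AP-1 sequences per 100 peaks in bins of 50 bp (y axis) against the distance from the peak centre in bp (x axis), for the gene-internal TSS-distal long-term peaks and for 3 other groups of peaks. In the gene-internal long-term peaks the bins next to the centre stand at 9.33 and 7.46 per 100 peaks, and all 4 groups are highest near the centre.

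The gathering of AP-1 sequences was not particular to peaks inside genes. The share was 16.3% in long-term peaks between genes, 12.9% in those near a TSS and 16.3% in acute peaks inside genes, each searched in the central 200 bp. The members exceeded the between-gene peaks by 4.58 percentage points (95% Newcombe interval -1.62 to 10.9; two-sided Fisher's exact test across peaks, adjusted p = 0.550). They exceeded the near-TSS peaks by 7.95 points (1.51 to 14.3; Fisher's exact test, adjusted p = 0.153) and the acute gene-internal peaks by 4.62 points (-0.355 to 10.3; adjusted p = 0.397). The adjustment is over 39 tests, those of 13 sequences in 3 comparisons, and since peaks of 1 library pair are not replicates, the p-values compare lists of peaks and not treatments. The difference from near-TSS peaks passed with any middle base allowed in the sequence (11.2 points, adjusted p = 0.0152) and with curated transcripts only (10.2 points, adjusted p = 0.0253). With the limit between these groups moved to 10000 bp from a TSS it fell to 1.97 points (Fisher's exact test, adjusted p = 0.927). That from acute peaks passed with whole peaks searched (14.6 points, adjusted p = 2.39e-07), where the median width was 118 bp in acute peaks and 509 bp in the members.

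FOXA was the sequence that set the members apart from the long-term peaks between genes. It lay in the central 200 bp of 19 members (7.09%; 4.58% to 10.8%) and of 6 of the 337 between-gene peaks (1.78%; 0.819% to 3.83%). All windows of the same position held it at 3.05%, and 3.07% after weighting by GC content, so the members stood above this level. The interval of the between-gene peaks includes the 3.03% of all windows between genes. The difference of 5.31 points (2.07 to 9.15) passed Fisher's exact test across peaks with an adjusted p of 0.0201. It did not pass in whole peaks, where the difference was 5.64 points (adjusted p = 0.0905), in the central 100 bp, where it was 3.29 points (adjusted p = 0.139), or with scores of 60 or more, where it was 3.69 points (adjusted p = 0.929). Against near-TSS and acute gene-internal peaks, where the FOXA share was 3.53% and 4.20%, the adjusted p was 0.397 and 0.355.

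Of the 19 members with FOXA, 1 also held AP-1 in its centre (5.26%; 0.935% to 24.6%), in Tmprss11c, a serine protease gene, and 3 (15.8%; 5.52% to 37.6%) held it somewhere in the peak. Both intervals include the AP-1 share of all members. Windows around the FOXA sequence, in capitals and on the plus strand of mm10, are given for 4 of the highest-scoring members that held it and were at least 90% unique.
Glis3, chr19:28621797-28621897: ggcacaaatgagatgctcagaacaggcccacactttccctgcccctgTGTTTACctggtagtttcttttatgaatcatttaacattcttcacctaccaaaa
Nck2, chr1:43494836-43494936: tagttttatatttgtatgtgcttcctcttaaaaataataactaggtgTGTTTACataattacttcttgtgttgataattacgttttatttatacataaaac
Wnk1, chr6:119945387-119945487: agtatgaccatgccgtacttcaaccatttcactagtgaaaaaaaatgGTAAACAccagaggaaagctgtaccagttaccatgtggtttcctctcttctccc
Zc2hc1a, chr3:7518806-7518906: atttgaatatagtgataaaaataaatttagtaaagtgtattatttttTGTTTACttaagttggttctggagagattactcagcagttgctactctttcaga

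Glis3, a zinc finger factor of pancreas, kidney and thyroid, had a score of 76.8 there. Nck2, an adaptor between receptor kinases and actin, had 71.3, Wnk1, a kinase that regulates ion transport, had 63.3 and Zc2hc1a had 62.7. These 4 genes were named after their values were seen and were not picked by score alone. Fully unique members with the sequence in Gm36154 (77.1) and Upp2 (66.7) are not shown. Other FOXA members lay in Tcf7l2, the Wnt effector, in Arid1b, a subunit of the BAF remodelling complex, and in Ank, a pyrophosphate transport gene. In the control RNA-seq libraries Foxa2 stood at 53.0 and 54.1 CPM.

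Of the remaining sequences, TEAD (ACATTCC) was held by 15 members (5.60%, interval 3.42% to 9.03%) against 2.74% of all windows. RUNX (TGTGGTT) was held by 18 (6.72%, interval 4.29% to 10.4%) against 4.78%, a level inside its interval. Long-term peaks between genes held TEAD at 5.0% and RUNX at 7.72%. The sequence of CTCF, the insulator protein, lay in 3 members (1.12%) against 0.0983% of all windows, in Dok5, Arhgap23 and Dlgap1; it was held by 3.06% of acute gene-internal peaks, a difference of -1.94 points (-3.32 to 0.342; Fisher's exact test, adjusted p = 0.400). Long-term peaks between genes held the CTCF sequence at 2.08%. The C/EBP sequence (TTGCNNAA), at 8.21%, and the antioxidant response core (TGACNNNGC), at 7.09%, lay near the level of all windows, at 9.02% and 5.55%. The cAMP response sequence (TGACGTCA), the HNF4A sequence (CAAAGTCCA) and the ETS sequence (CCGGAAGT) lay in the centre of 0 of 268 members, which allows a share of up to 1.41% (Wilson).

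Promoter sequences differed between the members and the near-TSS peaks, groups that the rule had split by distance to a TSS. The SP1 sequence (GGGCGG), which recurs in CpG-rich promoters, lay in 3.73% of members and 31.0% of near-TSS peaks. The difference was -27.3 points (-33.4 to -21.1, Fisher's exact test, adjusted p = 2.87e-16). Windows weighted to the GC content of the peaks held SP1 at 2.27% inside genes and 20.9% near a TSS. The members stood at 1.64 times and the near-TSS peaks at 1.48 times these levels. Members and near-TSS peaks were not compared with each other at like GC content. The ETS sequence was held by 3.92% of near-TSS peaks (adjusted p = 0.0135). RUNX went the other way, with 6.72% of members and 1.57% of near-TSS peaks (5.15 points, 1.74 to 8.92; adjusted p = 0.0373). None of these 3 sequences passed between the members and the between-gene peaks.

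**Figure D2:**
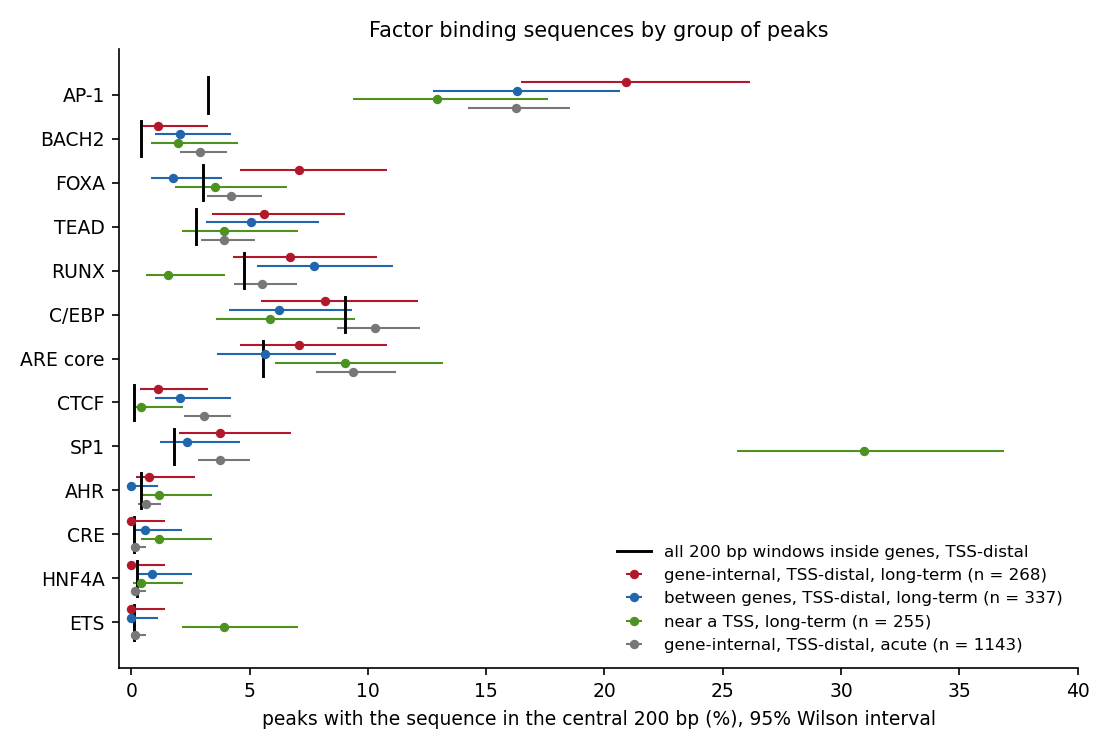
Share of peaks with each of 13 factor sequences in the central 200 bp (x axis, percent, bars for 95% Wilson intervals) in 4 groups of peaks, with a vertical line for all 200 bp windows of mm10 inside genes and over 5000 bp from a TSS. AP-1 in the gene-internal long-term peaks stands at 20.9% beside a line at 3.23%, FOXA at 7.09% beside 3.05%, and SP1 is high in the near-TSS peaks alone.

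The base composition of the members differed from that of between-gene peaks, as does that of the sequence classes by which the rule split them. The tests below therefore do not separate the peaks from their classes. GC content of the central 200 bp was 40.2% ± 11.3 (SD, n = 268) inside genes and 36.8% ± 10.9 (SD, n = 337) between genes, a difference of 3.46 points (permutation test across peaks, two-sided, 100000 resamples, p = 0.00017). Windows of the genome averaged 42.1% inside genes and 40.4% between them. Soft-masked repeats made up 29.7% ± 30.3 of the centre of members and 42.0% ± 35.1 of that of between-gene peaks (permutation test, p = 1e-05, the smallest that the resamples can give), beside 29.2% and 44.3% of all sequence in the respective classes. With scores of at least 60 the GC difference was 2.58 points (permutation test, p = 0.0963).

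The highest scores lay mostly in peaks with part of their sequence found again elsewhere in the genome. The highest was a peak of 3749 bp with a score of 757 in intron 30 of Myo3a, an unconventional myosin gene of hair cells, at chr2:22586943-22590691. It was followed by peaks in Commd10 (325), Chl1 (213), Dop1b (176), Cmss1 (140), Gm36876 (139), 2210408I21Rik (134), Cdk5rap2 (132), Gm34259 (126) and Shoc1 (120). In 8 of these 10 less than 90% of the 50 bp stretches of the peak were found at a single place in the genome, with 53.8% in Shoc1, 61.6% in Cmss1 and 64.0% in Myo3a. Only the peak of Commd10 held AP-1 sequences in its centre, 6 of them, with 14 in the whole peak of 1171 bp.

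Most members were short, weak and unique in sequence. Widths ran from 195 to 3749 bp with a median of 509 bp, scores from 50.02 to 757 with a median of 57.1, and 14 members reached 100. In 187 members (69.8%) every 50 bp stretch was found at a single place, whereas 15 (5.60%) had under 50% of such stretches. The respective shares of between-gene peaks were 52.8% and 12.8%. AP-1 was present in 50 of the 187 fully unique members (26.7%; 20.9% to 33.5%) and in 2 of the 47 under 90% unique (4.26%; 1.17% to 14.3%). By score, AP-1 was held by 17.4% of members up to 54.05, 25.3% of those up to 62.26 and 20.2% of those above. Among the 14 members with scores of 100 or more 1 held it (7.14%; 1.27% to 31.5%), an interval that includes the share of all members.

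**Figure D3:**
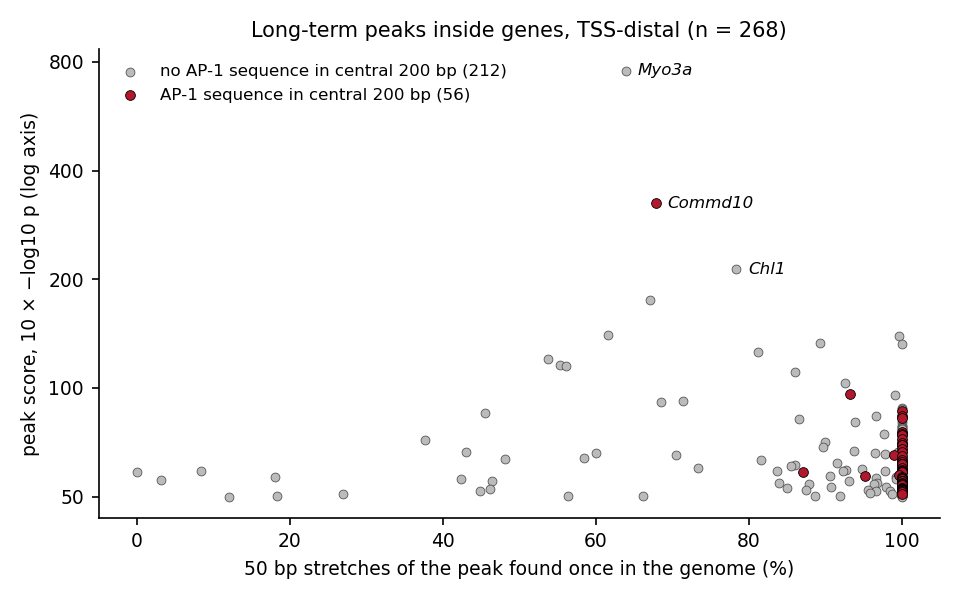
Peak score (y axis, log scale) against the share of the peak's 50 bp stretches found at a single place in mm10 (x axis, percent) for the 268 gene-internal TSS-distal long-term peaks, in red those with an AP-1 sequence in the central 200 bp. The 5 highest scores, led by Myo3a at 757, lie below 90% unique, and 50 of the 56 red points lie at 100%.

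The count of members moved with the limit of the position rule, to 292 at 2500 bp and 213 at 10000 bp. The members closest to the limit of 5000 bp lay 5004 bp from a TSS in 1700001O22Rik (score 52.1) and 5034 bp in Sncaip (55.2). Just outside it were gene-internal peaks at 4914 bp in Trim30a (50.3) and 4870 bp in Rab11fip4 (51.1). The median distance to a TSS was 22897 bp, with 55 members up to 10000 bp, 148 up to 50000 bp, 37 up to 100000 bp and 28 beyond. AP-1 was held by 16 of the 55 nearest members (29.1%; 18.8% to 42.1%) and by 8 of the 65 over 50000 bp from a TSS (12.3%; 6.37% to 22.4%), a difference that was not tested.

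By their shares in exons and first introns, the members were placed inside genes much as the sequence itself is. In introns lay 247 of them and in exons 21 (7.84%; 5.18% to 11.7%), where exons make up 6.92% of eligible sequence, that is, sequence inside genes over 5000 bp from a TSS. In the 243 for which the representative transcript gave an intron number, the first intron held 58 (23.9%; 18.9% to 29.6%) against 22.5% of eligible intron sequence. The median member lay 53.4% of the way into its gene. The nearest TSS belonged to the host gene for 162 members (60.4%), and for the rest to another gene inside or beside it.

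Of the 21 exonic members, 17 lay in protein-coding genes and 4 in lncRNA genes, Gm32224, Gm41396, Gm30310 and Gm38983. The host genes included Pbrm1, a bromodomain subunit of the PBAF remodelling complex, Akt2, a kinase of insulin signalling, Itch and Nedd4l, both HECT ubiquitin ligases, and Taok1, a stress-activated kinase. Only the peak in Myo5b, a recycling endosome motor, was centred in coding sequence (0.373%; 0.0659% to 2.08%), where coding sequence is 2.37% of eligible sequence. In Zdhhc14, a palmitoyltransferase gene, the peak at chr17:5753057-5753533 lay in the last stretch of the gene.

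The density of members was 28.3 per 100 Mb of eligible sequence, against 25.9 for long-term peaks between genes and 63.7 near a TSS. Chromosome 2 held 32 members, or 43.7 per 100 Mb, and chromosome 15 had the highest density at 50.5. The X chromosome held 1, in Cask, on 41.1 Mb of eligible sequence, or 2.44 per 100 Mb. Acute gene-internal peaks were also sparse on the X chromosome, at 29.2 per 100 Mb against 64.2 to 170.0 on the autosomes. The number of X and autosome copies in these cells was not measured.

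Few long-term peaks overlapped an acute peak, and none of these were members. Of all 860 long-term peaks, 11 shared a base with 1 or more of the 2945 acute peaks. Of these, 8 were among the 337 between genes (2.37%; 1.21% to 4.61%) and 3 among the 255 near a TSS (1.18%; 0.401% to 3.40%). The members had 0 of 268, which allows a share of up to 1.41% (Wilson), and the differences between these shares were not tested. A single member lay within 1000 bp of an acute peak. This member, with a score of 73.9, lay at chr10:13684505-13684820 in intron 4 of Aig1, an androgen-induced hydrolase gene, 395 bp from an acute peak with a score of 60.06. Its AP-1 window is shown above. Within 10000 bp of an acute peak there were 9 members.

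The 268 members lay in 257 genes, of which 11 held 2 members each. These were Alk, Dgkb, Glis1, Macrod2, Med12l, Myo5b, Pard3, Pde4d, Pdzd2, Stxbp4 and Vav3. The gap within a pair ran from 7890 bp in Dgkb, a diacylglycerol kinase, to 374142 bp in Pde4d, a cAMP phosphodiesterase. Both members held AP-1 in Glis1, Med12l and Myo5b, and 1 of the pair did in Pard3, a polarity scaffold. In the RNA-seq controls Pard3 stood at 8.40 RPKM (CPM per kb of exon), Stxbp4 at 0.526, Pdzd2 at 0.335 and Alk at 0.135, while Dgkb and Med12l had 0.

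The host genes were long. Their median span was 122254 bp, against 24766.5 bp for the 21118 genes that hold eligible sequence. The 5 longest were Cntnap2 (2241333 bp), Lsamp, Macrod2, Dlg2 and Robo2, all but Macrod2 known for neuronal adhesion or synapses, and none of the 5 passed the count filter. Since a long gene offers more eligible sequence, spans are better read against that sequence. Hosts of 500 kb or more held 11.2% of members (7.95% to 15.5%) and 19.6% of eligible sequence, hosts of 100 to under 500 kb held 47.0% (41.1% to 53.0%) and 42.6%, and hosts under 20 kb 7.46% (4.88% to 11.2%) and 4.97%.

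Genes with RNA counts held more members than their share of sequence, without a test. The host gene passed the RNA-seq count filter for 153 members (57.1%; 51.1% to 62.9%), and such genes make up 50.0% of eligible sequence. Genes at 10 RPKM or more in controls held 18.3% of members (14.1% to 23.4%) on 12.9% of the sequence. Genes from 1 to under 10 RPKM held 19.0% on 21.5%, and tested genes under 1 RPKM 19.8% on 15.7%. A further 79 members lay in genes that were counted but not tested (29.5% on 37.3%), and 36 in genes that are not in the count table. AP-1 was held by 23.5% of members in tested hosts (17.5% to 30.8%) and by 17.4% of the others (11.5% to 25.3%).

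The 10 host genes with the highest control levels were led by Ptpa, an activator of the phosphatase PP2A, at 98.8 and 105.5 RPKM, and Pdap1 at 96.3 and 95.5. Slc9a3r1, an apical scaffold, Bcas2, a spliceosome subunit, Ank, Gng12, a G protein gamma subunit, Rab6a, a Golgi GTPase, Hk1, hexokinase 1, Pitpna, a phosphatidylinositol transfer protein, and Litaf followed, down to 43.6 and 44.1. Gng12 is the host of an AP-1 window shown above; its level was 235 and 228 CPM in controls and 146 and 167 CPM at 25 µM. The treated values of Gng12 lay below those of controls (log2 fold change -0.57 ± 0.12 SE), which did not pass (edgeR adjusted p = 0.0758). Litaf stood at 106 and 107 CPM in controls and 134 and 163 CPM at 25 µM (adjusted p = 0.111).

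The host genes were also matched to 7 function lists made of symbols and the first letters of symbols, which placed 43 of the 257. These patterns do not cover a class of genes: the kinase genes Sik3, Wnk1 and Taok1, the transcription and chromatin genes Glis1, Glis3 and Pbrm1, the ubiquitin ligase genes Itch and Nedd4l and the sphingomyelin synthase gene Sgms1 are hosts outside them, named here after their values were seen. The counts are therefore of matched symbols, and the share of eligible sequence beside each is of genes matched by the same patterns. The list of kinases and phosphatases matched 12 hosts, among them Cdk5rap2, a centrosome protein placed here by its symbol, Cdk8, the Mediator kinase, and Ptprj; they held 4.85% of members on 3.54% of eligible sequence. That of adhesion, cytoskeleton and matrix matched 10 (Myo3a and Itga9 among them), with 4.10% on 3.85%. That of transport matched 8, led by Trpc4, Kcnh1 and Slc9a3r1, with 2.99% on 4.18%, and that of GTPase regulators 5, with Trio, Vav3 and Tiam2, with 2.24% on 1.94%. That of transcription and chromatin factors matched 4, with Atf6, Zbtb46, Tcf7l2 and Arid1b, with 1.49% on 3.18%. That of ubiquitin and vesicle traffic matched 4, led by Snx27, with 1.49% on 2.06%, and that of lipid and xenobiotic metabolism matched 0 on 0.890% of the sequence. No test was made of these counts.

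At 25 µM for 90 minutes, 13 of the 146 tested host genes changed, 2 of them higher and 11 lower than control (edgeR's quasi-likelihood test, adjusted p under 0.05 over all 13619 tested genes). This is 8.90%, 1.37% and 7.53% of the tested hosts. The background was 4.63% of all tested genes, with 1.78% higher and 2.85% lower, and 4.81% of the 10470 tested genes with eligible sequence, with 1.76% higher and 3.06% lower. The median log2 fold change of hosts was -0.20, against -0.033 for tested genes with eligible sequence and -0.0047 for all. Without control replicate 1 or 2 the count of hosts was 5 (3.36%) and 7 (4.70%), where 2.07% and 2.02% of all tested genes were called. Without treated replicate 1 or 2 it was 113 (74.3%) and 101 (67.8%), with 77.6% and 67.2% of all genes, so that the hosts then lay near the background. DESeq2 called 27 hosts (17.6%) and 14.2% of all genes to which it gave an adjusted p. In bulk RNA, a change in the make-up of the cells and a change of RNA per cell cannot be told apart.

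Gene length moved with these calls. Among tested genes with eligible sequence, 4.38% were called under 50 kb, 3.98% from 50 to under 100 kb, 5.11% from 100 to under 200 kb and 13.4% at 200 kb or more. The hosts in the same classes had 1 of 29, 1 of 33, 3 of 39 and 8 of 45 called, the last being 17.8%. In the longest class the median log2 fold change was -0.48 for all such genes and -0.24 for hosts. The part of gene length in the host calls was not tested beyond these classes.

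**Figure D4:**
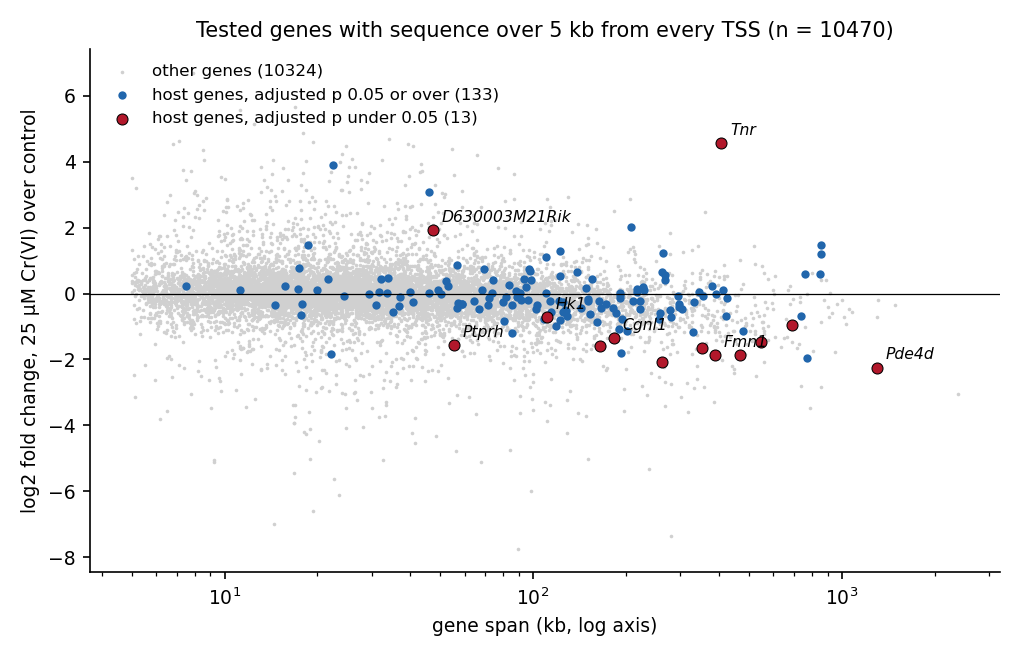
Log2 fold change of 25 µM Cr(VI) over control (y axis) against gene span in kb (x axis, log scale) for the 10470 tested genes with sequence over 5000 bp from every TSS. Host genes are coloured, with the 13 that passed in red; 2 lie above 0, Tnr and D630003M21Rik, and 11 below.

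Signalling and polarity genes were among those that fell. Pde4d had 3.80 and 3.73 CPM in controls and 0.621 and 0.967 CPM in treated libraries (log2 fold change -2.25 ± 0.31 SE, edgeR adjusted p = 0.0410). Its members had scores of 74.8 and 57.1 and held no AP-1 sequence. Plcb1, a phospholipase C of G protein signalling, went from 37.8 and 33.8 CPM to 18.1 and 18.5 CPM (-0.97 ± 0.13, edgeR adjusted p = 0.0410). Pard3 went from 75.9 and 79.1 CPM to 31.6 and 23.9 CPM (-1.48 ± 0.18, edgeR adjusted p = 0.0342). Both treated libraries of Pard3 stood far below both controls, with the lower value in treated replicate 2.

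Cgnl1, which encodes a junction protein, had 236 and 242 CPM in controls and 93.5 and 93.9 CPM in treated libraries (-1.35 ± 0.10, edgeR adjusted p = 0.0282), and its member at chr9:71757320-71757738, in intron 1, held an AP-1 sequence. Fmn1, an actin-nucleating formin, went from 11.8 in both controls to 3.40 and 3.11 CPM (-1.86 ± 0.18, edgeR adjusted p = 0.0312). Its member also held AP-1. Both genes kept their replicates close together on either side of a wide gap.

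The other lower genes were Zdhhc14 (-2.06), Gphn, which encodes the receptor anchor gephyrin (-1.86), Arid1b (-1.66), Cdyl2, a chromodomain gene (-1.60), Ptprh, a receptor tyrosine phosphatase (-1.56), and Hk1 (-0.71), with edgeR adjusted p-values from 0.0391 to 0.0467. Arid1b had 192 and 185 CPM in controls and 72.0 and 47.3 CPM in treated libraries. Hk1, the first enzyme of glycolysis, had 239 and 244 CPM against 144 and 152 CPM, and its member held AP-1.

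The largest change among the hosts was a rise of Tnr, which encodes the matrix protein tenascin-R. It had 14 and 11 reads in controls and 304 and 207 reads in treated libraries, or 0.403 and 0.281 CPM against 8.98 and 7.15 CPM (log2 fold change 4.55 ± 0.31 SE, edgeR adjusted p = 0.0282). Its level per length stayed low, at 0.128 and 0.102 RPKM after treatment. D630003M21Rik rose from 4.17 and 5.04 CPM to 14.7 and 20.4 CPM (1.93 ± 0.25, edgeR adjusted p = 0.0391). The members of both held an AP-1 sequence, at chr1:159837583-159838239 in intron 2 of Tnr and at chr2:158217992-158218742 in intron 2 of D630003M21Rik. Another gene lies within the span of 11 of the 13 called hosts, and the count table does not state whether reads were assigned by strand.

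**Figure D5:**
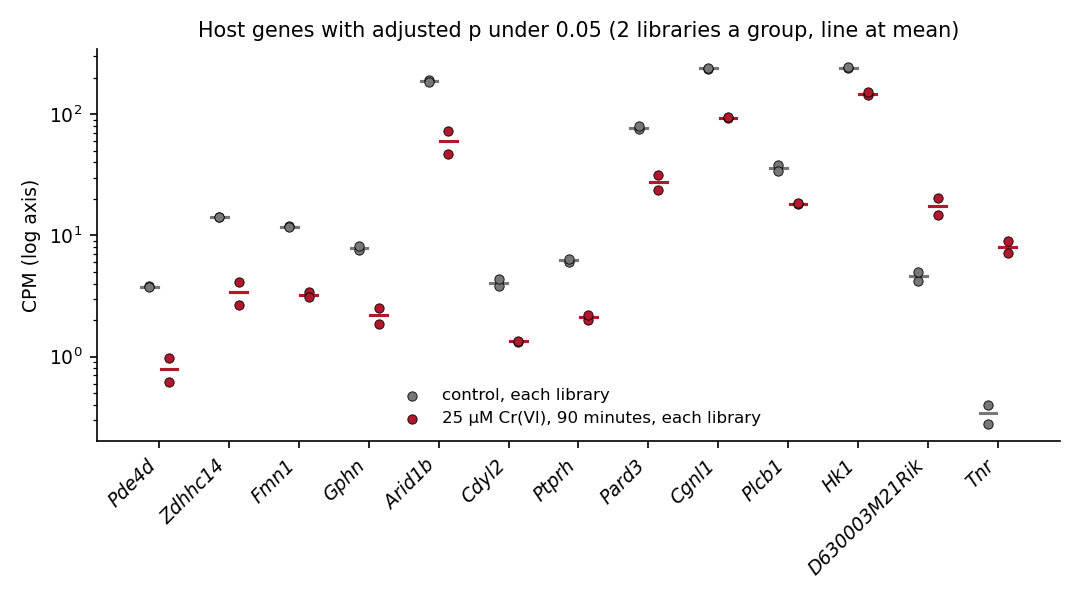
Level in CPM (y axis, log scale) of the 13 host genes with an adjusted p under 0.05, with a point for each of 2 control and 2 treated libraries and a line at the mean of each group. Only D630003M21Rik and Tnr are higher in treated libraries.

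Of the tested hosts with an AP-1 member, 6 of 35 were called (17.1%), with a median log2 fold change of -0.22, and of those without, 7 of 111 (6.31%), with a median of -0.16. Of all tested genes 4.63% were called, and the difference between the shares with and without an AP-1 member was not tested. Among hosts in the 7 function lists, edgeR called 2 of 27 tested genes, Arid1b and Ptprh, beside 4.63% of all tested genes. An unadjusted edgeR p under 0.05 was found for 13 (48.1%), beside 30.7% of all tested genes. DESeq2 called 7 of 28 (25.0%) beside its 14.2% of all genes.

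A list of 24 genes of the AP-1 and CNC families held no host, and 18 of its genes were tested. The list does not cover every related leucine zipper gene. Creb5, a host whose member held an AP-1 sequence, is not on it and was named after its values were seen. By edgeR 0 of the 18 passed at 25 µM, beside 4.63% of all tested genes. An unadjusted edgeR p under 0.05 was found for 7 (38.9%) beside 30.7% of all tested genes. DESeq2 called 5 of 20 (25.0%) beside 14.2% of all genes. The most abundant per length in controls were Nfe2l2, the antioxidant response factor NRF2, at 102.5 RPKM in both libraries, Jund at 78.4 and 76.3, Nfe2l1 at 65.0 and 66.6, Junb at 61.8 and 61.0, and Fosl1 at 49.7 and 50.9. Fosl1 had 84.8 and 86.9 CPM in controls and 61.2 and 353 CPM in treated libraries, so the treated pair lay on either side of the controls. Fosl2 had 58.1 and 56.7 CPM in controls and 78.0 and 71.2 CPM in treated libraries (log2 fold change 0.38 ± 0.11 SE, edgeR adjusted p = 0.115). Bach2 was low, at 0.0953 and 0.0775 RPKM.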

How the data were processed

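FAIRE-seq peaks of 4 libraries and RNA-seq of 4 libraries of Hepa-1 cells were used. The peak lists were deposited with a score, 10 times the negative log10 of the p-value that MACS gave at default settings to 1 treated against 1 control library after the authors aligned reads to mm10 with BWA; how many reads lie behind each peak is not given in the lists. The read counts per Entrez gene were deposited without normalization after alignment by the authors with TopHat, the submitters' processing notes naming CASAVA 1.8; the counting tool is not given in the sources used here. The members, lists and sequences were chosen with earlier results of these data known.

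Peak centres were placed on RefSeq genes of GRCm38.p6, which is mm10, with pseudogene records left out (4 further peaks lie in those alone). A centre in several genes (11 members) went to a protein-coding gene first, then to the longest. Factor sequences were searched on both strands in the central 200 bp, and each 50 bp stretch was counted in the whole genome. The reference was every 200 bp window of the genome in the same position class, plain and weighted to the GC content of the peaks in bins of 1 percentage point. Groups of peaks were compared with two-sided Fisher's exact tests, Benjamini-Hochberg adjusted over 39 tests, and permutation tests with 100000 resamples (Python 3.11.15, scipy 1.17.1). Intervals are Wilson's at 95%, or Newcombe's for differences, and cover counting error only.

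Total counts ran from 32319676 to 37696116 per library. The filter filterByExpr kept 13619 of 23403 genes for testing by edgeR 4.0.16 (quasi-likelihood, TMM, Benjamini-Hochberg, threshold 0.05); DESeq2 1.42.0 was an alternative. RPKM divides CPM by the length of all RefSeq exons of a gene. No source says that the 2 libraries of a group came from separate cultures, so p-values measure the spread between these samples, which may be technical. Of 257 hosts, 221 were in the count table and 146 were tested.

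Genes were named by rule: the 10 highest scores, the 2 peaks on either side of the 5000 bp limit, hosts with 2 or more members, members near an acute peak, the 10 highest-scoring unique members with AP-1 and those with 2 or more, called hosts, the 10 hosts with the highest control level, exonic members, examples of each function list and the 5 longest hosts; others are marked in the text. The tests, the sequence search and the count of stretches were tested on simulated data. Sequences are from the RefSeq genome GRCm38.p6.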

Additional observations from a re-analysis of the deposited data

How the results depend on the processing

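The count of 268 members was 107 with a score of at least 60 and 14 with at least 100; the other 5 alternatives gave 213 to 292. The AP-1 share of 20.9% was 27.2% in whole peaks and 13.1% in the central 100 bp, and 18.8% to 25.7% under the other 5. Of the AP-1 comparisons, 3 of 21 alternative values passed where the reported value had not: against near-TSS peaks, 11.2 points with any middle base (adjusted p = 0.0152) and 10.2 points with curated transcripts; against acute peaks, 14.6 points in whole peaks. The difference in AP-1 share from near-TSS peaks fell to 1.97 points with the limit at 10000 bp from a TSS (Fisher's exact test, adjusted p = 0.927). The GC difference was 2.58 points with scores of at least 60, and no longer passed. The share of members in tested genes, 57.1%, was 64.4% with protein-coding hosts only and 63.6% with curated transcripts only. Of the 6 alternatives to the FOXA difference, chosen after seeing the data, 3 lost the call, with adjusted p from 0.0905 to 0.929, and the range of all 6 began at 0.00766.

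The 13 called hosts became 27 with DESeq2, 40 with a replicate block and 31 at an adjusted p of 0.1, where DESeq2 called 14.2%, the block 21.8% and the 0.1 threshold 16.2% of all genes; leaving out 1 library gave 5 to 113, the remaining library of a group being assumed to vary like the others. Without TMM it was 11, with upper-quartile scaling 12 and without the count filter 17, and the median of all genes moved to -0.11 without TMM. All 13 kept their direction in each of 9 alternatives, and 8 and 7 of them no longer passed without control replicate 1 or 2. The labels give replicate numbers but no shared batch, and the deviations of libraries with the same number correlated at 0.091, so the numbers are not treated as pairs; the block called 2969 genes in all against 631. Peaks come from single libraries, so depth and replicate error of a peak cannot be given, and single library pairs limit every statement on opening.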
